A study of Mus musculus with 16 samples.

Results

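The genes described here are 10 members of the MHC class II presentation pathway in B16 melanomas of mice: Ciita, Cd74, H2-Aa, H2-Ab1, H2-Eb1, H2-DMa, H2-DMb1, H2-DMb2, H2-Oa and H2-Ob. They are defined by symbol, a choice made with earlier results of these data known, and all 10 were found among the 32285 genes of each of the 8 deposited matrices. Their levels were followed in macrophages, monocytes, dendritic cells, B cells and melanoma cells. Droplet single-cell RNA sequencing (the 10x 3' version 3 chemistry) had been applied to CD45-enriched cells of subcutaneous tumours. All hosts were C57BL/6J mice that received 1000000 cells of the B16 line Bro4.1, either control or lacking B2m, the light chain of MHC class I. All were injected into the peritoneum with 100 µg of antibody on days 6, 9 and 12, and tumours were taken on day 14. The antibody was an agonist of CD40, a receptor of antigen-presenting cells, or a rat IgG2a isotype control. The 4 groups were control tumours with isotype (5 mice), control tumours with anti-CD40 (2 mice), B2m-null tumours with isotype (5 mice) and B2m-null tumours with anti-CD40 (4 mice).  The labels attach the B2m genotype to the mouse and the design text attaches it to the implanted cells, which was followed. Each mouse carried a hashtag antibody, and the mice of a group were pooled before loading. The anti-CD40 group with control tumours was a single pool on 2 technical lanes, so pool and group cannot be told apart there, and the other groups had 2 pools each.

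MHC class II molecules are pairs of an alpha and a beta chain that carry peptides from the endosome to the surface of antigen-presenting cells, where CD4 T cells read them. The invariant chain Cd74 guides and plugs the new pair, H2-DM exchanges the plug for peptide, and H2-O holds H2-DM back, mainly in B cells. Transcription of the genes needs the coactivator CIITA, which is recruited by factors bound to the X and Y boxes of their promoters, and which interferon-gamma induces in macrophages. H2-Aa and H2-Ab1 form the I-A molecule. H2-Eb1 is the beta chain of I-E, whose alpha chain is not made in C57BL/6 mice, so that its transcript does not give a surface I-E molecule in this strain.

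The 8 H2 members lie in 1 stretch of chromosome 17 (GRCm38), from the start of H2-Oa at 34092340 to the end of H2-Eb1 at 34316674. Ciita lies on chromosome 16, from 10480059 to 10528418. RefSeq promoter windows of GRCm38.p6, from 250 bases before to 50 after a gene's start, were taken for 7 of the 10 members. Ciita and H2-Ab1 had no window, and Cd74 was left out beforehand, so its promoter is not counted among the members. Both strands were searched for the Y box TGATTGG and for the core of the X box, AACNNATG, which do not overlap. The Y box was found in 6 of the 7 members, against 7.82% of 32851 mouse promoters of the same length. An X box core with a Y box 10 to 25 bases after it was found in 4 members, H2-Eb1, H2-DMb1, H2-DMb2 and H2-Ob, and in 9 of all the promoters (0.0274%). The X core alone was in 8.86% of promoters. A match is a description of the letters and not evidence of binding. The sequences below run from 45 bases before the Y box to 10 after it, with matches in capitals. They are those of the 4 members whose stretch overlaps no annotated exon of a member. They are shown because H2-Eb1, H2-DMb2 and H2-Ob, which hold both boxes, had unlike levels across cell types in these data. H2-Aa had the Y box and no match to the X core letters searched, which does not show that it lacks an X box. The stretches of H2-DMb1 (62 of its 62 bases) and H2-Oa (11 bases) overlap an annotated exon and are not shown. That of H2-DMb2 lies inside the longer GENCODE gene model.
H2-Aa, chr17:34287857-34287918, minus strand: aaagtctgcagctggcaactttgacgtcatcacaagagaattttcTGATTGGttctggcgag
H2-Eb1, chr17:34305761-34305822, plus strand: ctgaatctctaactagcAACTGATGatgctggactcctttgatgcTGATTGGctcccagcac
H2-DMb2, chr17:34145112-34145173, plus strand: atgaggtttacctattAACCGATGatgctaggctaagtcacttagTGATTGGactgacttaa
H2-Ob, chr17:34238801-34238862, plus strand: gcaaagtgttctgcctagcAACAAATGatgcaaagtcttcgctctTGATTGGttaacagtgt

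The 8 lanes held 116552 cell barcodes and 46.0 to 99.3 M (1 M = 1000000) unique molecular identifiers (UMIs, counted transcripts) each, with lane medians of 1715 to 4225 UMIs per barcode. Hashtags assigned 71.2% of barcodes to a mouse, from 25% in B2m-null isotype pool 1 to 90.03% in a control anti-CD40 lane. Of the assigned barcodes, 59.0% (B2m-null isotype pool 1) to 83.4% (B2m-null anti-CD40 pool 2) in a lane had their hashtag over the background limit, and the rest were placed by the relative counts of the hashtags. The labels name 3 hashtags per pool and 6 of the 8 files hold 2, so the numbers of mice are those of the hashtags found. At most 92 barcodes (0.62%) were shared between any 2 lanes. After filters, 88701 cells remained, 70877 of them with a mouse. Cells were placed in gates by marker genes, none of which is a member. With at least 20 cells per mouse, the macrophage gate held 24823 cells (299 to 5715 per mouse), the monocyte gate 4614 (66 to 676) and the dendritic gate 3527 (56 to 572), in all 16 mice. The B gate held 430 cells in 8 mice and the melanoma gate 644 in 9 mice. Levels are UMIs per 1000000 UMIs of the gate (CPM), summed per mouse. The melanoma gate gave the only check on the B2m label: B2m was at 453 and 516 CPM in the 2 mice with B2m-null tumours and at 1100 to 2248 CPM in the 7 with control tumours.

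Among the 10 isotype mice, the chains, the invariant chain and Ciita were highest in the conventional dendritic cell gates, cDC1 and cDC2. The cells called B cells are those of the B gate. Of its 718 cells 711 fell in 1 cluster, which was led by antibody genes such as Igkc and Jchain, so that the gate also held RNA of antibody-secreting cells. Cd74 was at 10194 ± 1242 CPM (SD, n = 10) in cDC2 and 9899 ± 936 in cDC1 (n = 10). It was then at 5674 ± 667 in mature dendritic cells (n = 10), 4411 ± 623 in B cells (n = 3), 3978 ± 529 in monocytes (n = 10) and 2843 ± 297 in plasmacytoid dendritic cells (pDC, n = 8). Macrophages followed at 2146 ± 715 (n = 10), neutrophils at 1700 ± 1111 (n = 4) and fibroblasts at 881 ± 165 (n = 5). The lowest of the 12 gates were NK cells at 632 ± 432 (n = 7), melanoma cells at 483 ± 171 (n = 7) and T cells at 328 ± 125 (n = 8). These means join both tumour genotypes in unlike shares. Control and B2m-null mice were 5 and 5 in macrophages, 1 and 2 in B cells and 5 and 2 in melanoma cells. Cd74 of macrophages differed between the genotypes, as given below. Neighbours in this order were compared within mice by an exact sign-flip permutation test (two-sided, on log2(CPM + 1)), with Benjamini-Hochberg adjustment over 110 neighbouring pairs of all members. For Cd74, the steps from cDC1 to mature dendritic cells (10 of 10 mice, adjusted p = 0.0269) and from monocytes to pDC (8 of 8 mice, adjusted p = 0.0452) passed the threshold of 0.05. The order of cDC2 and cDC1, and every other neighbouring pair for Cd74, did not. Over the members, 19 of the 110 pairs passed. B cells were present in 3 isotype mice, where this exact test cannot go below p = 0.25, so no step to or from B cells could pass. None of the 19 steps that passed rested on fewer than 8 mice with both gates, and with 7 the exact test cannot go below p = 0.0156, so a step that did not pass among the rarer gates is not shown to be absent.

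**Figure D1:**
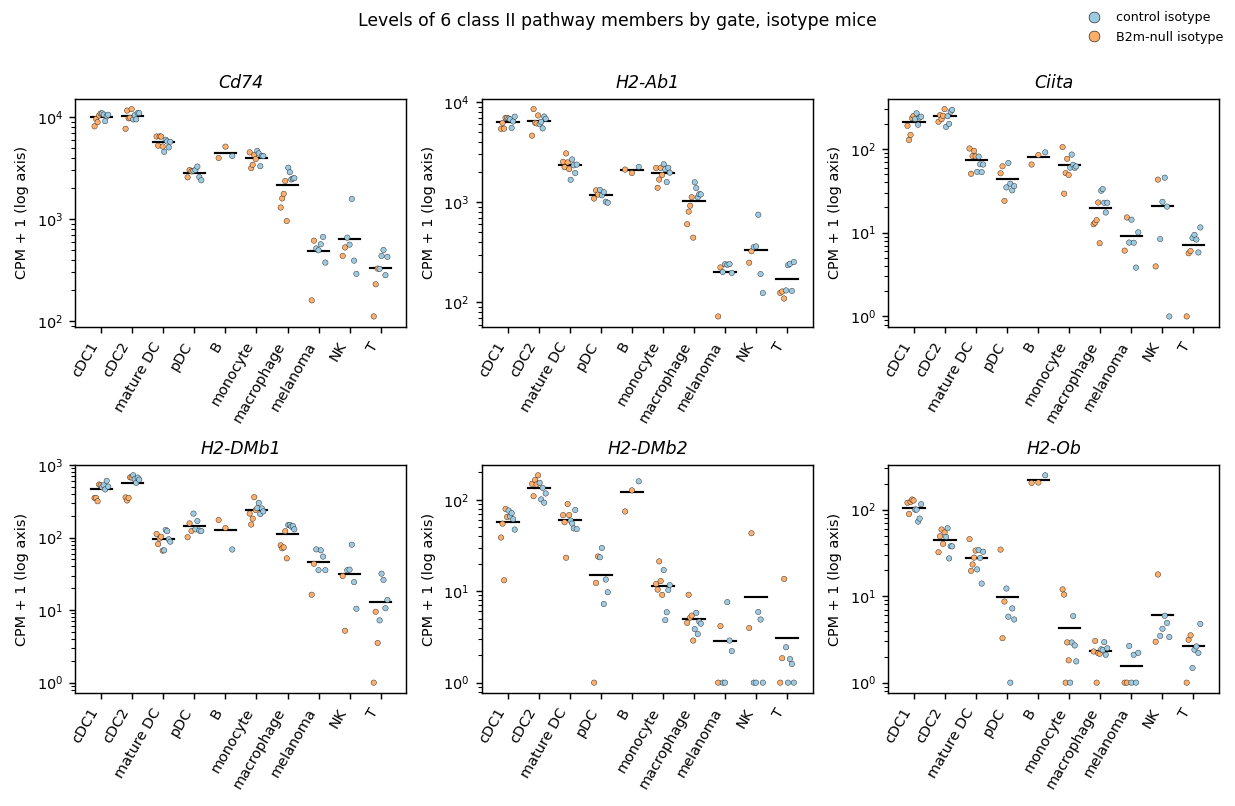
Levels of 6 members by gate in isotype mice, as CPM + 1 on a log axis. Each point is a mouse with at least 20 cells in the gate, blue for control and orange for B2m-null tumours, and the line is the mean. Cd74, H2-Ab1 and Ciita are highest in cDC1 and cDC2, and H2-Ob is highest in the 3 mice with B cells.

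The 2 I-A chains followed the same outline as Cd74. H2-Ab1 was at 6463 ± 1075 CPM in cDC2 (n = 10), 1966 ± 323 in monocytes (n = 10) and 1038 ± 349 in macrophages (n = 10). Its step from cDC1 to mature dendritic cells was 1.45 on the log2 scale (10 of 10 mice, adjusted p = 0.0269, exact permutation test), and that of Cd74 was 0.81. Ciita, the coactivator, was at 243 ± 39.2 CPM in cDC2 (n = 10), 63.2 ± 20.9 in monocytes (n = 10) and 18.8 ± 8.4 in macrophages (n = 10). Its steps from monocytes to pDC and from pDC to macrophages both passed (8 of 8 mice each, adjusted p = 0.0452, exact permutation test). H2-DMa and H2-DMb1, the alpha chain and a beta chain of the peptide exchanger, were higher in cDC2 than in cDC1 (H2-DMa 965 against 799 CPM in 10 of 10 mice, adjusted p = 0.0269; H2-DMb1 562 against 467 CPM in 9 of 10 mice, adjusted p = 0.0452, exact permutation tests).

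H2-Ob and H2-Oa, the chains of the exchanger's inhibitor, had another order. H2-Ob was at 218 ± 25.9 CPM in B cells (n = 3), 105 ± 20.7 in cDC1 (n = 10), 43.6 ± 11.4 in cDC2 (n = 10) and 1.3 ± 0.55 in macrophages (n = 10). It was higher in cDC1 than in cDC2 in 10 of 10 mice, by 1.26 on the log2 scale (adjusted p = 0.0269, exact permutation test). H2-Oa was at 97.8 ± 6.6 CPM in B cells (n = 3), 58.0 ± 30.2 in pDC (n = 8), 56.0 ± 11 in cDC1 (n = 10) and 1.23 ± 0.91 in macrophages (n = 10). It was also at 10.0 ± 5.9 CPM in T cells (n = 8), above the 2.87 ± 3.78 of monocytes (8 of 8 mice, adjusted p = 0.0452, exact permutation test). The other steps of these chains that passed were H2-Ob from mature dendritic cells to pDC and, of the exchanger's second beta chain, H2-DMb2 from cDC1 to pDC (2.5 on the log2 scale).

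H2-DMb1 and H2-DMb2 are neighbouring copies of the exchanger's beta chain, and their balance was compared between cell types. In mice with at least 50 UMIs of the 2 genes in a gate, H2-DMb2 made up 69.6 ± 11% of them in B cells (SD, n = 6). The share was 37.8 ± 10.8% in mature dendritic cells (n = 8), 18.6 ± 6.2% in cDC2 (n = 12), 10.0 ± 2.8% in cDC1 (n = 13) and 3.01 ± 2.31% in macrophages (n = 16). The treatments were mixed differently in these gates. Of the 6 B cell mice 5 had anti-CD40, at 68.3 to 78.1%, and the 1 isotype mouse was at 48.2% from 56 UMIs. The 2 isotype B cell mice under the limit were at 29.6% (27 UMIs) and 70.0% (10 UMIs), so that isotype B cells overlapped with isotype cDC2 (12.0 to 31.6%) and mature dendritic cells (28.1 to 50.6%). With anti-CD40, cDC2 were at 17.1, 11.7 and 16.9% and the 1 mature dendritic mouse over the limit at 21.1%. Mature dendritic mice with anti-CD40 under the limit were at 51.6% (31 UMIs) and 36.4% (11 UMIs). The copies are similar in sequence, so their counts are uncertain: in the last 500 bases of the GENCODE transcripts, 12.7% of H2-DMb1's 90-base windows were identical in H2-DMb2. None of H2-DMb2's windows was identical in H2-DMb1.

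In macrophages of B2m-null tumours, anti-CD40 went with higher levels of the invariant chain, all 3 class II chains, the coactivator and the exchanger. Cd74 stood at 1295, 1589, 1761, 2357 and 954 CPM in the isotype mice and at 3542, 3270, 5102 and 5103 CPM in the anti-CD40 mice. The groups did not overlap, and both mice of anti-CD40 pool 2 were above both of pool 1. The fitted rise was 3.10-fold (log2 1.63 ± 0.22 SE, adjusted p = 6.53e-05, edgeR's quasi-likelihood test with Benjamini-Hochberg adjustment over 11858 genes). H2-Eb1 stood at 376, 491, 572, 862 and 332 CPM with isotype and at 1349, 1210, 1828 and 1892 CPM with anti-CD40. This was the largest fold of the members, 3.44 (log2 1.78 ± 0.25, adjusted p = 0.000118, edgeR). H2-Ab1 stood at 603, 806, 923, 1123 and 442 CPM with isotype and at 1735, 1598, 2250 and 2249 CPM with anti-CD40. Every anti-CD40 mouse was again above every isotype mouse (2.91-fold, adjusted p = 0.000105, edgeR). H2-Aa rose 3.07-fold, H2-DMb1 2.44-fold and H2-DMa 2.02-fold, with adjusted p of 0.000201, 0.000239 and 0.00324 (edgeR).

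Ciita in macrophages was at 11.6, 12.2, 13.1, 21.9 and 6.5 CPM in the isotype mice with B2m-null tumours and at 20.1, 21.8, 27.8 and 26.1 CPM in the anti-CD40 mice. One isotype mouse, at 21.9, lay within the anti-CD40 range. The fitted rise was 2.15-fold (log2 1.11 ± 0.31, adjusted p = 0.0144, edgeR). The remaining 3 members, H2-DMb2, H2-Oa and H2-Ob, stayed at 8.14 CPM or less in every macrophage sample and did not pass (log2 -0.02, 0.51 and 0.65). In all, 7 of 10 members were called higher and 0 lower, where 17.4% of all genes tested were called higher and 17.1% lower. The median log2 difference of the members was 1.2, and that of all genes -0.01. All 10 members passed the filter on low counts in the macrophage, monocyte, dendritic and B gates.

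In macrophages of control tumours, anti-CD40 went with higher Cd74 and H2-Ab1, from a higher isotype level. Cd74 stood at 3184, 2877, 2442, 2490 and 2514 CPM with isotype and at 4314 and 4921 CPM in the 2 anti-CD40 mice (1.88-fold, log2 0.91 ± 0.26, adjusted p = 0.0205, edgeR). H2-Ab1 stood at 1582, 1386, 1121, 1203 and 1196 CPM with isotype and at 2279 and 2365 CPM with anti-CD40 (1.97-fold, log2 0.98 ± 0.26, adjusted p = 0.0137, edgeR). For both genes the 2 anti-CD40 mice were above all 5 isotype mice. H2-Aa (1.71-fold, adjusted p = 0.0695), H2-Eb1 (1.66-fold, 0.0908) and H2-DMa (1.63-fold, 0.0742) did not pass in the same edgeR fit. H2-DMb1 was at 148, 148, 141, 144 and 129 CPM with isotype and 146 and 162 CPM with anti-CD40, so the groups overlapped (1.19-fold, adjusted p = 0.476, edgeR). Ciita overlapped too, at 16.4 to 32.2 CPM with isotype and 26.1 and 34.6 CPM with anti-CD40. The 2 called of 10 members stand against 11.4% of all genes called higher. The median log2 difference of the 10 members was 0.72, against -0.01 for all genes. No member was called when either anti-CD40 mouse or either control isotype pool was left out. The count was 4 without mouse 2 and 5 without mouse 1 of B2m-null isotype pool 2, which enters only the shared spread, and 5 without that pool.

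**Figure D2:**
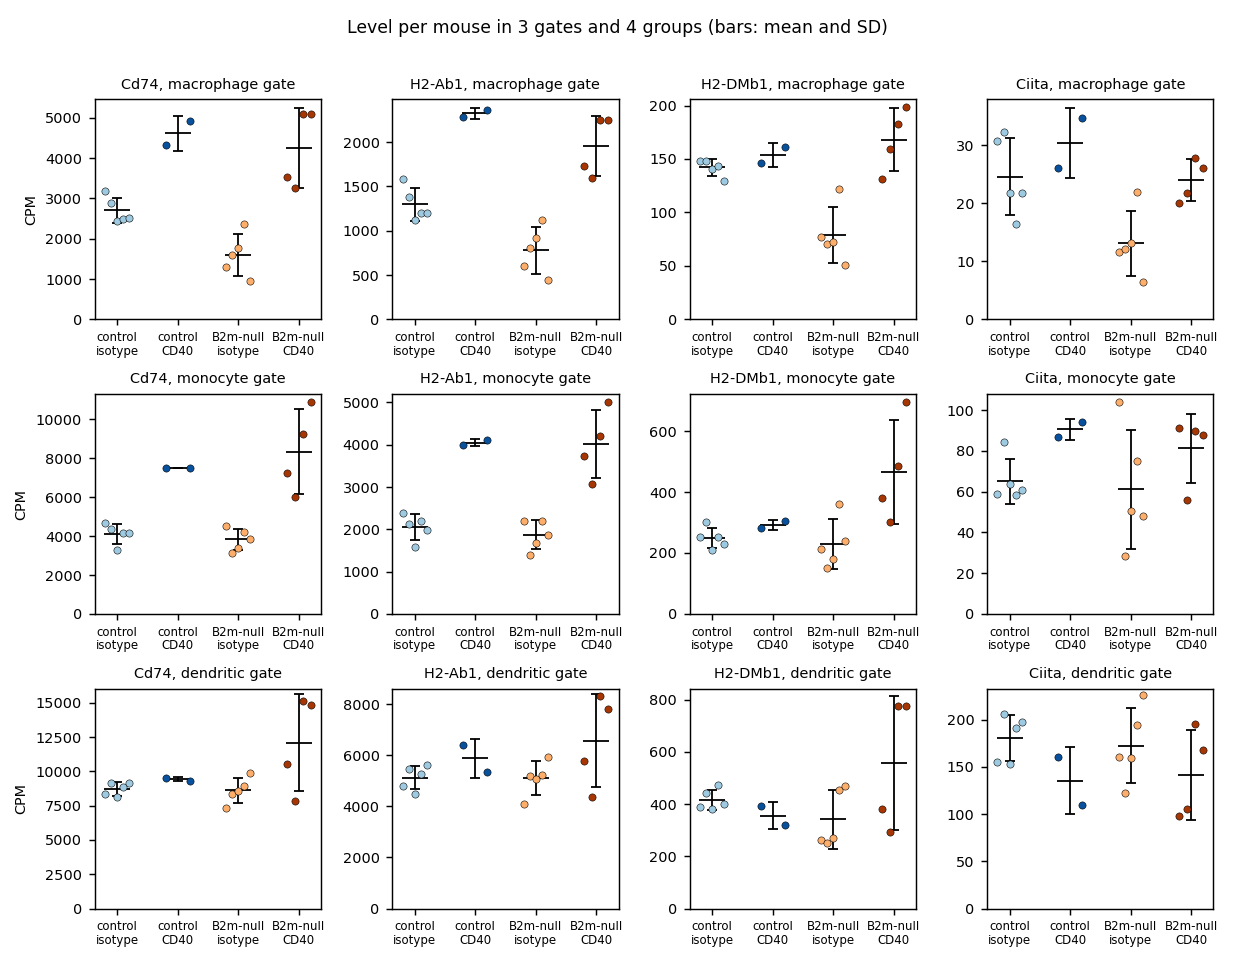
CPM of Cd74, H2-Ab1, H2-DMb1 and Ciita (columns) in the macrophage, monocyte and dendritic gates (rows), with 1 point per mouse and bars for the mean and SD of each group. In macrophages the 5 mice with B2m-null tumours and isotype have the lowest group mean for all 4 genes, and in the dendritic gate the 4 anti-CD40 mice with B2m-null tumours fall into a lower and a higher pair for Cd74.

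The isotype groups themselves differed in macrophages. In B2m-null tumours 6 members were called lower than in control tumours, where 4.54% of genes were called lower: H2-Eb1 (fell by 1.04 on the log2 scale), H2-DMb1 (fell by 0.89), H2-Aa (fell by 0.83), Cd74 (fell by 0.82), H2-DMa (fell by 0.80) and H2-Ab1 (fell by 0.79). Their adjusted p ranged from 0.0134 for H2-DMb1 to 0.0379 for H2-Aa (edgeR). For Cd74, H2-Eb1 and H2-DMb1 the groups did not overlap, though mouse 1 of B2m-null isotype pool 2 came close to the lowest control mouse (Cd74 2357 against 2442 CPM, H2-DMb1 122 against 129 CPM). For H2-Aa, H2-Ab1 and H2-DMa that mouse lay within the control range, and the other 4 were below it. Ciita was at 0.53 times the control level (log2 -0.92 ± 0.31, adjusted p = 0.0791, edgeR), with no call. The median over the members was -0.81, and over all genes 0.01. The 6 members stayed lower under each of the alternatives that gave a value (180 of 180 fits, log2 -1.32 to -0.61), but the number of calls changed. It was 0 without control isotype pool 1 and 0 without B2m-null isotype pool 1, the pool with the fewest assigned barcodes. It was 2 without mouse 1 of control isotype pool 1, and 2 without mouse 1 or without mouse 2 of B2m-null isotype pool 1. It was also 2 with no filter on low counts, 1 with cells of at least 1000 UMIs and at most 5% mitochondrial counts, and 1 with clusters in place of gates. In the other direction, DESeq2 called 7 members, and the highest count was 7 among removals of a mouse and 7 among removals of a pool. Of the marker lists of other cells in the macrophage gate, the 9 cDC1 markers summed to 406 to 537 CPM in the isotype mice with control tumours. In those with B2m-null tumours they summed to 267 to 344 CPM, with no overlap. The sums of the monocyte and cDC2 markers, given below, overlapped between these groups. The part of these markers was not tested.

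With anti-CD40, the 2 tumour genotypes were not told apart in macrophages. Cd74 was at 4314 and 4921 CPM in control tumours and at 3270 to 5103 CPM in B2m-null tumours. No member was called by edgeR, and 0 had an unadjusted p below 0.05, where 11.2% of all genes were called in either direction. The difference between the 2 CD40 effects passed for 1 member, H2-DMb1 (log2 1.03 ± 0.32, adjusted p = 0.0375, edgeR), against 16.3% of all genes. H2-DMb1 rose in B2m-null macrophages, from 77.4, 70.2, 72.5, 122 and 50.8 CPM to 131, 159, 183 and 198 CPM, and overlapped between the groups of control tumours. DESeq2 called 2 members. No member was called after removal of any mouse other than mouse 1 of B2m-null anti-CD40 pool 1, mouse 2 of either control isotype pool, or either mouse of B2m-null isotype pool 2. The count was 4 without mouse 1 of that last pool and 4 without the whole pool, and it was 0 without control isotype pool 1 or 2, B2m-null isotype pool 1 or B2m-null anti-CD40 pool 2. H2-Eb1 had a difference of log2 1.05 ± 0.40 that did not pass (adjusted p = 0.0827, edgeR).

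Markers of other cells in the macrophage gate also differed between groups. The summed level of 9 monocyte markers was 895 to 1748 CPM with isotype and 495 and 686 CPM with anti-CD40 in control tumours. In B2m-null tumours it was 1139 to 2579 CPM with isotype and 677 to 1184 CPM with anti-CD40. The 9 cDC2 markers summed to 313 to 517 CPM with isotype and 174 and 297 CPM with anti-CD40 in control tumours, and to 248 to 838 and 161 to 314 CPM in B2m-null tumours. The 9 cDC1 markers, given above for isotype, summed to 380 to 430 CPM with anti-CD40 in control tumours and to 296 to 355 CPM in B2m-null tumours, so that they overlapped with isotype within each genotype. The 9 mature dendritic cell markers summed to 13 to 38 CPM in every macrophage sample, and none of the markers of these 4 lists was at 0 throughout a group. The cDC1 list is not limited to cDC1. Over all cells of a gate it summed to 4036 CPM in cDC1 and 368 CPM in macrophages. It was at 2597 CPM in pDC, 827 CPM in mature dendritic cells, 795 CPM in NK cells, 586 CPM in B cells and 350 CPM in melanoma cells. The part of other cells in the class II levels was not tested. In the bulk sums used here, more cells with class II and more class II per cell cannot be told apart, so the level was also taken per cell.

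Per cell, after thinning each cell to 2000 UMIs, a larger share of macrophages held 20 or more UMIs of Cd74, H2-Aa, H2-Ab1 and H2-Eb1 together in the anti-CD40 groups. The share was 24.0 ± 2.4% (SD, n = 5) in control isotype and 43.5 ± 3.5% (n = 2) in control anti-CD40. It was 12.2 ± 5.2% (n = 5) in B2m-null isotype and 39.6 ± 7.2% (n = 4) in B2m-null anti-CD40, and the ranges of the last 2 groups, 8.0 to 21.0% and 32.2 to 46.8%, did not overlap. In monocytes the shares were 40.4 ± 10.8% (n = 5), 63.3 ± 0.8% (n = 2), 36.3 ± 3.3% (n = 5) and 70.9 ± 8.0% (n = 4) in the same order. T cells, which are not known for class II synthesis in mice, gave 0.5 to 5.7% in a mouse. Without thinning, the median macrophage of B2m-null isotype mice had 0.15% of its UMIs from the 4 genes and that of B2m-null anti-CD40 mice 0.70%, and the 90th percentile went from 1.19 to 3.14% (means of mice). Thinning left out 1022 of 6879 macrophages as too shallow in control isotype, 2099 of 7343 in control anti-CD40, 538 of 5122 in B2m-null isotype and 649 of 5479 in B2m-null anti-CD40.

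**Figure D3:**
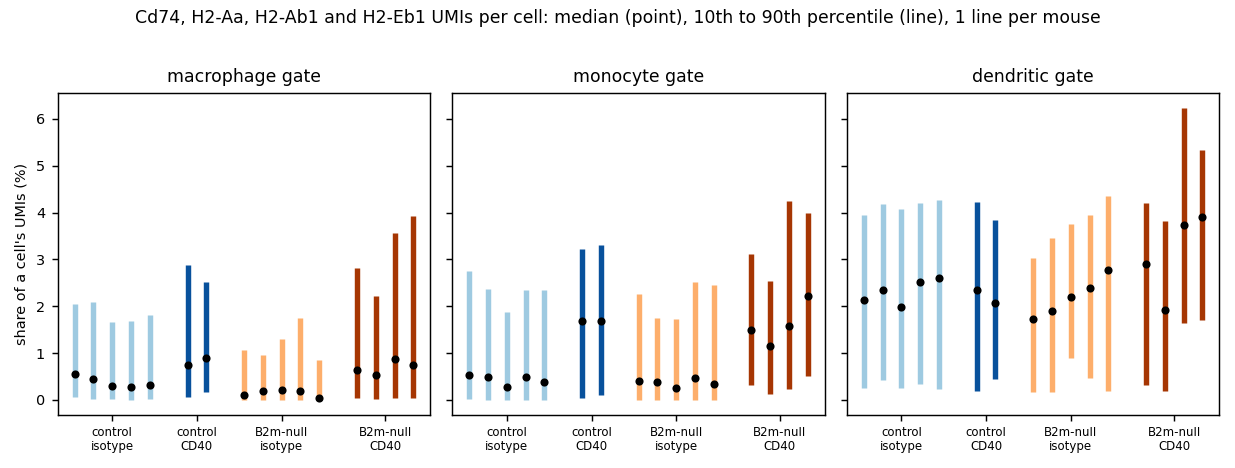
Share of each cell's UMIs from Cd74, H2-Aa, H2-Ab1 and H2-Eb1 in percent, unthinned, with 1 line per mouse from the 10th to the 90th percentile of cells and a point at the median. In the macrophage and monocyte gates the upper ends and medians are higher in the anti-CD40 mice, and in the dendritic gate 3 of the 4 anti-CD40 mice with B2m-null tumours have medians above those of all 10 isotype mice.

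In monocytes of B2m-null tumours, 6 members were called higher with anti-CD40, where 10.9% of all genes were. Cd74 stood at 4500, 3153, 3400, 4230 and 3871 CPM with isotype and at 7250, 5990, 9247 and 10916 CPM with anti-CD40, with no overlap (2.52-fold, log2 1.33 ± 0.16, adjusted p = 3.02e-06, edgeR). H2-Eb1 stood at 1288, 838, 777, 1407 and 1209 CPM and at 2634, 2093, 3077 and 3696 CPM (2.94-fold, adjusted p = 8.05e-05, edgeR). H2-Aa (2.43-fold), H2-Ab1 (2.45-fold), H2-DMb1 (2.11-fold) and H2-DMa (1.49-fold) also rose, and the adjusted p of H2-DMb1 was 0.0144 (edgeR). Ciita did not pass: it was at 28.2 to 104 CPM with isotype and 55.9 to 91.2 CPM with anti-CD40 (log2 0.49 ± 0.20, adjusted p = 0.0814, edgeR). The isotype mouse at 104 CPM was above every anti-CD40 mouse.

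In monocytes of control tumours, 3 members rose with anti-CD40, against 2.20% of all genes. H2-Ab1 stood at 2396, 2137, 1590, 2208 and 1973 CPM with isotype and at 3995 and 4109 CPM with anti-CD40 (1.99-fold, adjusted p = 0.00136, edgeR). Cd74 rose 1.84-fold and H2-Aa 1.67-fold (adjusted p = 0.00632 and 0.0133, edgeR). For these 3 genes both anti-CD40 mice were above all 5 isotype mice. The count fell to 1 without anti-CD40 mouse 1 or without control isotype pool 1, and to 0 without anti-CD40 mouse 2. The isotype groups were not told apart in monocytes: 0 members were called by edgeR or DESeq2 and 0 had an unadjusted p below 0.05, against 2.00% of genes called in either direction. Cd74 was at 3290 to 4651 CPM in control tumours and 3153 to 4500 CPM in B2m-null tumours. The 2 CD40 effects differed for 0 members by edgeR and DESeq2, with 2 below an unadjusted p of 0.05, H2-Aa and H2-Eb1, against 6.55% of genes called. Without B2m-null anti-CD40 pool 1, 3 members passed. The 9 monocyte markers of this gate summed to 8784 to 11083 CPM with isotype and 7292 and 7865 CPM with anti-CD40 in control tumours, and to 9181 to 10932 and 6666 to 7804 CPM in B2m-null tumours. Their part in the class II difference was not tested.

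**Figure D4:**
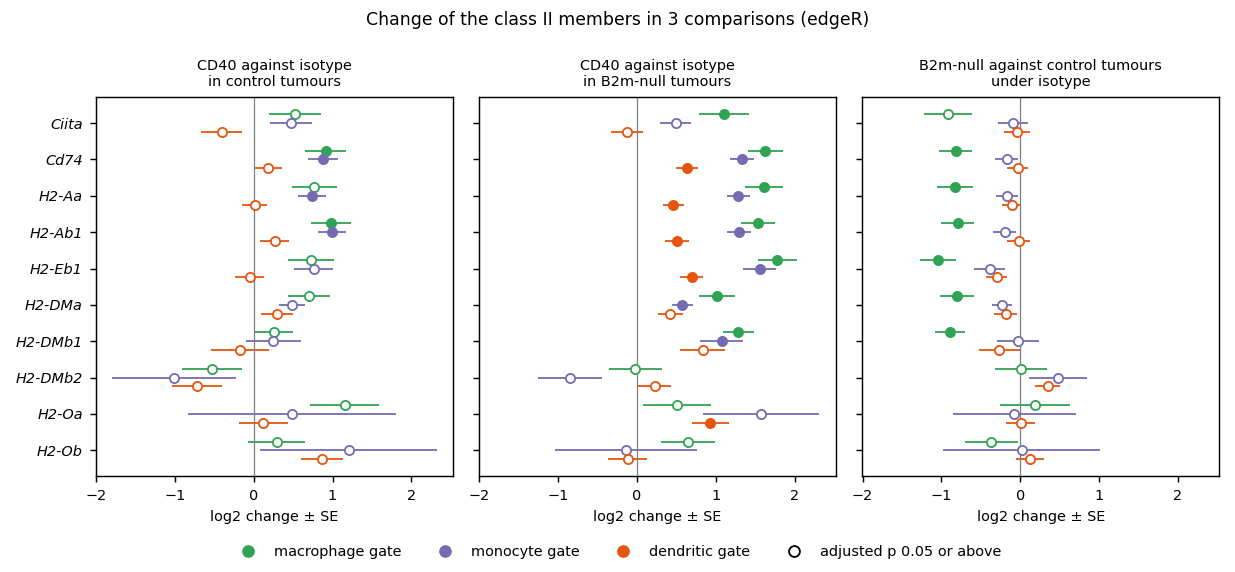
Log2 difference ± SE of the 10 members in the macrophage, monocyte and dendritic gates for anti-CD40 against isotype in control tumours (left) and in B2m-null tumours (middle), and for tumour genotype among isotype mice, B2m-null minus control (right). Filled points passed an adjusted p of 0.05 (edgeR). Most filled points are in the middle panel, and in the right panel they are all of the macrophage gate.

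In dendritic cells of B2m-null tumours 5 members rose with anti-CD40, against 9.19% of genes: H2-Eb1 (1.62-fold, adjusted p = 0.00387), Cd74 (1.56-fold, 0.00636), H2-Ab1 (1.43-fold, 0.0269), H2-Aa (1.38-fold, 0.0192) and H2-Oa (1.91-fold, 0.00966, edgeR). Cd74 was at 7342 to 9879 CPM in the isotype mice and at 10527, 7876, 15142 and 14860 CPM in the anti-CD40 mice. Mouse 2 of anti-CD40 pool 1, at 7876, lay within the isotype range, and both mice of pool 2 were the highest. H2-Oa was at 30.6 to 68.0 CPM with isotype and at 66.5, 75.2, 108 and 80.7 CPM with anti-CD40, so that the ranges just touched. The count was 0 without B2m-null anti-CD40 pool 2, 0 without B2m-null isotype pool 1 and 0 with the pool as the unit. It was 2 without mouse 1 and 3 without mouse 2 of that anti-CD40 pool, and 3 without mouse 1 of that isotype pool. The mix of dendritic cells differed between the pools: mature dendritic cells were 53.6 and 60.7% in the mice of pool 1 and 12.9 and 21.4% in those of pool 2, and cDC2 were 12.5 and 14.3% against 52.9 and 46.4%. Since cDC2 had more Cd74 than mature dendritic cells, the gates were also fitted apart.

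Among cDC1 of B2m-null tumours 1 anti-CD40 mouse had enough cells (24), so the values are given with no test. Cd74 was at 14443 CPM in that mouse and at 8100 to 10823 CPM in the 5 isotype mice, and H2-DMb1 was at 859 against 316 to 538 CPM. In cDC2 Cd74 alone was called (log2 0.83, adjusted p = 6.04e-05, edgeR, 3.55% of genes), with 2 anti-CD40 mice. In mature dendritic cells 5 members were called (2.44% of genes), H2-Aa, H2-Ab1, H2-Eb1, H2-DMa and H2-DMb1, with log2 differences of 0.62 to 1.08 and 2 anti-CD40 mice. Both anti-CD40 mice were from pool 2 in cDC2 and from pool 1 in mature dendritic cells, so pool and treatment cannot be told apart in either gate. In dendritic cells of control tumours 0 members were called with anti-CD40 by edgeR and 1 by DESeq2, against 2.56% of genes in edgeR, and 2 had an unadjusted p below 0.05. These were H2-Ob (136.9 and 83.8 CPM with anti-CD40 against 45.7 to 72.5 CPM with isotype, adjusted p = 0.0877, edgeR) and H2-DMb2 (39.1 and 43.5 against 61.1 to 84.8 CPM, adjusted p = 0.245, edgeR). Beside this, cDC1, in which H2-Ob is high, were 55.2 and 53.0% of dendritic cells in the anti-CD40 mice and 35.0 to 40.1% in the isotype mice. Mature dendritic cells were 13.8 and 22.7% against 31.6 to 40.8%. The part of this mix in the levels of H2-Ob and H2-DMb2 was not tested. Between the isotype groups 0 members were called (1.58% of genes) by edgeR and DESeq2, and 2 had an unadjusted p below 0.05. The 2 CD40 effects differed for 0 members by edgeR (4.32% of genes), with 5 below an unadjusted p of 0.05, and for 1 by DESeq2. That edgeR count was 6 without B2m-null anti-CD40 pool 1, 3 without its mouse 2 and 3 without B2m-null isotype pool 2. It was 1 without B2m-null anti-CD40 pool 2 or its mouse 1, and 1 without mouse 2 of B2m-null isotype pool 2. For anti-CD40 in control tumours the count was 1 without either B2m-null anti-CD40 pool, and between the isotype groups it was 1 without B2m-null isotype pool 2.

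The B gate was small, with 22 to 94 cells in each of 8 mice. It also held transcripts of antibody-secreting cells, in amounts that differed between mice. Jchain, the joining chain of secreted antibodies, was at 1734 and 0 CPM in B2m-null isotype mice and at 565, 1119 and 3630 CPM in B2m-null anti-CD40 mice, and 6 genes of such cells (a list made after the data were seen) summed to 2513 and 260.3 against 1482, 2042 and 5367 CPM. In control tumours that sum was 4914 CPM in the isotype mouse and 2531 and 1010 CPM with anti-CD40. Ms4a1, a surface marker of mature B cells, was at 523 to 1043 CPM in the 8 mice. The part of this mixture in the levels below was not tested. In B2m-null tumours H2-DMb2 was at 73.4 and 126 CPM with isotype and at 274, 243 and 248 CPM with anti-CD40 (2.71-fold, log2 1.44 ± 0.34, adjusted p = 0.0371, edgeR), the 1 call, where 1.27% of genes were called higher. Both isotype mice were from B2m-null isotype pool 2, while the anti-CD40 mice were from pools 1 and 2. A difference of that isotype pool and the treatment therefore cannot be told apart in this gate. H2-Oa (101 and 102 CPM against 252, 184 and 264 CPM, adjusted p = 0.0549) and Ciita (64.2 and 83.7 CPM against 181, 172 and 162 CPM, adjusted p = 0.0613, edgeR) did not overlap between the groups but did not pass. H2-DMb1 was at 174 and 135 CPM with isotype and at 76.8, 112 and 86.3 CPM with anti-CD40, with no call. DESeq2 called none of the 10, and 8 had an unadjusted p below 0.05 in edgeR. The edgeR call was lost without mouse 1 of B2m-null anti-CD40 pool 1, without either mouse of B2m-null isotype pool 2, or without either control anti-CD40 mouse. Where a removal left 1 mouse in a group, it was assumed to vary like the others. The count was 3 without mouse 2 of anti-CD40 pool 1, 5 without that pool, and 2 without anti-CD40 pool 2, which gave 1 mouse. In control tumours 1 isotype mouse, of 22 cells, had enough B gate cells, so the values are given with no test. H2-DMb2 was at 158 CPM in that mouse, from 7 UMIs, and at 208 and 135 CPM with anti-CD40, and H2-DMb1 was at 67.6 CPM, from 3 UMIs, against 63.0 and 52.5 CPM. T cell markers were in the B gate too: the 11 markers summed to 0 CPM in the control isotype mouse, 2053 and 2162 in control anti-CD40, 595 and 1037 in B2m-null isotype and 184 to 1974 CPM in B2m-null anti-CD40. Over all cells of the gate the T list summed to 1078 CPM and the gate's own B list to 4061 CPM. The macrophage, monocyte and pDC lists were at 2556, 2404 and 1222 CPM there. The part of these markers was not tested.

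The melanoma gate held class II transcripts at low levels. Over the 9 mice, Cd74 ranged from 158 to 794 CPM, H2-Aa from 40.9 to 342 CPM and Ciita from 2.83 to 14.2 CPM. T cells of the same tumours, which are not known for class II synthesis in mice, served as a comparison level. How much of their UMIs came from free RNA or mixed droplets was not tested. In the 8 mice with both gates (exact sign-flip permutation test, two-sided, smallest possible p 0.0078, Benjamini-Hochberg over 10 members), 3 members were higher in the melanoma gate. H2-DMb1 was at 51.0 ± 13.1 CPM against 14.0 ± 9.1 (8 of 8 mice, adjusted p = 0.026, exact), H2-Aa at 276 ± 46.8 against 127.7 ± 43.0 (8 of 8 mice, adjusted p = 0.026, exact) and H2-Eb1 at 211 ± 38.4 against 117 ± 41.3 (7 of 8 mice, adjusted p = 0.0391, exact). H2-Oa was lower in the melanoma gate, at 1.56 ± 1.16 against 7.27 ± 1.90 CPM (0 of 8 mice higher, adjusted p = 0.026, exact permutation test). The source of the H2-Oa UMIs in T cells was not tested either. H2-Oa was at 97.8, 58.0 and 56.0 CPM on average in B cells, pDC and cDC1 of isotype mice. Cd74 (590 against 349 CPM, 7 of 8 mice, adjusted p = 0.0521, exact) did not pass, and Ciita was at 8.66 ± 3.71 against 6.5 ± 2.4 CPM (4 of 8 mice, adjusted p = 0.258, exact). On average 8 of the 10 members were larger in the melanoma gate, with 3 called higher. In 11 mice with at least 10 cells 5 were larger and 0 called higher, and H2-Oa was again called lower (adjusted p = 0.0195, exact permutation test). After removal of each mouse in turn 8 members were larger again. With 7 mice the exact test cannot go below p = 0.0156, and no member was called in 6 of the 8 removals (smallest adjusted p 0.0521, exact permutation test). Without control isotype pool 1 mouse 1, 2 members were called higher, and H2-Oa and H2-Ob lower. Without control isotype pool 2 mouse 2, 6 were called higher and H2-Oa lower.

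**Figure D5:**
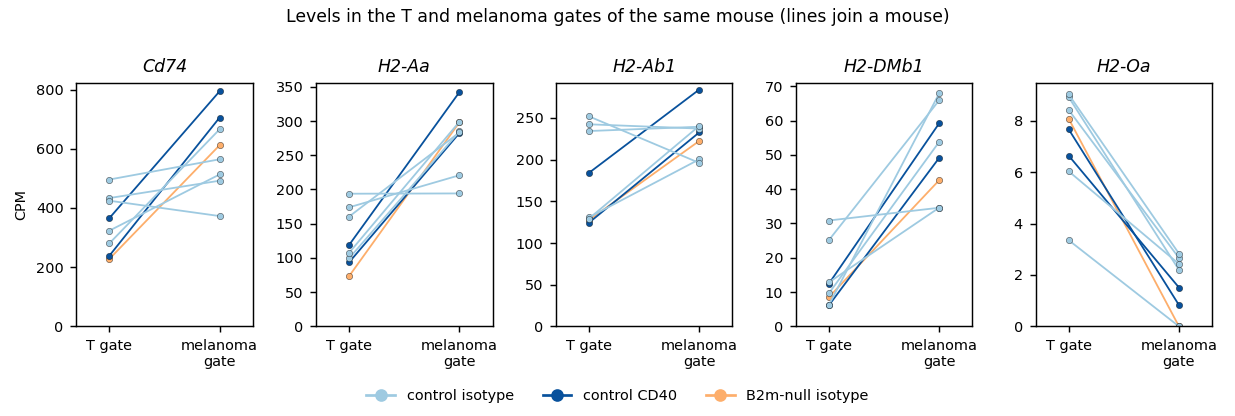
CPM of 5 members in the T and melanoma gates of the same mouse, with a line for each of the 8 mice, coloured by group. H2-Aa and H2-DMb1 are higher in the melanoma gate in all 8 mice, and H2-Oa is lower in all 8.

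Macrophage transcripts were also higher in the melanoma gate. The 10 macrophage markers summed to 1021 to 2890 CPM there and to 151 to 389 CPM in T cells, with none at 0. The UMIs of the 4 genes Cd74, H2-Aa, H2-Ab1 and H2-Eb1 per UMI of C1qa, C1qb and C1qc, complement genes of macrophages, were 1.02 ± 0.41 in macrophages (SD, n = 16), 3.01 ± 1.78 in the melanoma gate (n = 9) and 8.17 ± 3.45 in T cells (n = 14). The melanoma cells were deeper, at 22806 ± 7653 UMIs per cell (n = 9) against 3601 ± 949 in T cells (n = 14). In cells of both gates with no C1q UMI, 3 mice were left, with which the exact test cannot go below p = 0.25. Of the 3 members called above, H2-DMb1 was there at 35.6 ± 17.1 CPM against 8.97 ± 5.00 (3 of 3 mice). H2-Aa was at 138 ± 83.0 against 116 ± 71.6 CPM (2 of 3 mice, log2 0.22) and H2-Eb1 at 109.8 ± 42.6 against 103 ± 67.5 CPM (2 of 3 mice, log2 0.19). With all cells of the 8 mice their log2 differences were 1.15 and 0.89. These 2 sets differ in mice as well as in cells, so nothing is read from the change between them. The part of macrophage RNA in the melanoma gate was not tested. Anti-CD40 against isotype in control tumours called 0 of the 7 members tested in this gate (5.61% of genes in either direction, edgeR), with 0 below an unadjusted p of 0.05. All 7 had a positive log2 difference, with a median of 0.43 against -0.02 for all genes, from 2 anti-CD40 mice and 5 isotype mice. In B2m-null tumours 0 anti-CD40 mice had enough melanoma cells, so that comparison was not made.

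Further genes of the pathway were taken from a list of 25, in 5 groups. In macrophages of B2m-null tumours 6 of 25 rose and 7 fell with anti-CD40, where 17.4% of all genes rose and 17.1% fell. Of the 6 genes of interferon-gamma input 2 rose, Socs1 (log2 1.88 ± 0.41) and Irf1 (1.33 ± 0.28), with adjusted p of 0.00342 and 0.00232 (edgeR), and Jak1 fell. Irf1 is a transcription factor of that pathway, and Socs1 is its feedback inhibitor. Of the 8 lysosomal genes, Ifi30, a thiol reductase that opens disulfide bonds of antigens, rose by 1.16 ± 0.12 (adjusted p = 3.54e-06, edgeR). Ctss, the protease that trims the invariant chain, rose by 0.74 ± 0.15, as did Cst3, while Ctsd (fell by 0.38) and Lgmn fell. H2-Eb2, a further beta chain gene, was called higher but stayed at 2.77 CPM or less. Of the promoter-binding factors 0 of 7 rose and Nfya (fell by 0.50) and Creb1 fell, and of the 3 turnover genes March8 and Cd83 (fell by 0.60) fell.

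In macrophages of control tumours 4 of 25 rose and 0 fell (11.4% and 9.71% of all genes). The 4 were lysosomal genes: Ctss (0.91 ± 0.18), Ctsd (0.68 ± 0.17), Ctsb and Cst3. The difference of its CD40 effects passed for Ctsd, which was at 2878 ± 356 CPM (n = 5) and 4188 ± 100 (n = 2) in control tumours and 3839 ± 688 (n = 5) and 2556 ± 401 (n = 4) in B2m-null tumours, isotype first. Between the isotype groups 0 were higher and 4 lower in B2m-null macrophages (3.39% and 4.54% of all genes), Socs1 (fell by 1.79), Irf1 (fell by 1.42), Ifi30 (fell by 0.56) and Ctss (fell by 0.51). Irf1 was at 121 ± 28.0 CPM (n = 5) in control isotype and 45.7 ± 18.9 (n = 5) in B2m-null isotype macrophages. In monocytes the counts with anti-CD40 were 0 up and 0 down of 24 tested in control tumours (2.20% and 1.41% of all genes) and 4 up and 4 down in B2m-null tumours (10.9% and 8.05%), with Ifi30 up by 1.32 ± 0.12 in the second. In dendritic cells they were 1 up and 0 down of 23 in control tumours (1.88% and 0.687% of all genes), and 3 up and 1 down in B2m-null tumours (9.19% and 6.74%).

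The members' profiles were compared over 41 means of gate and group, which share libraries and free RNA, so the correlations are descriptions. Cd74, H2-Aa, H2-Ab1 and H2-Eb1 had Pearson r of 0.987 to 0.994 with each other, H2-DMa 0.947 to 0.969 with them and Ciita 0.918 to 0.923. H2-Oa and H2-Ob had r of 0.842 with each other, and H2-Ob had 0.890 with H2-DMb2 and 0.655 with H2-Ab1. Among 12630 other genes, the profiles most like that of H2-Ab1 were Ifi30 (r = 0.909), Irf5 (0.902), Plbd1 (0.901), Naaa, Wdfy4, Prcp, Fgd2, Rasa4, March1 and Plekho1 (0.857), of which Wdfy4 was a marker used for a gate. Those most like Ciita were Fgd2 (0.868), Wdfy4, Rp2, Irf5 and Cbfa2t3, and those most like H2-Ob were Hepacam2 (0.859), Kctd14, Siglecg, Btla and Ero1lb.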

How the data were processed

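UMI counts per gene and barcode, with hashtag counts in further lines, were deposited by the authors (units: raw counts). Per the submitters' processing notes they used Cell Ranger 3.0.0, bcl2fastq 2.20.0.422 and the mm10 build, while the annotation and each tool's role were not given in the sources used here. The labels name 3 hashtags per pool, and 6 of the 8 files hold 2, so mice were counted as the hashtags found. The 8 lanes held 46.0 to 99.3 M UMIs, and the count behind a value was lowest for members at a few CPM and in the small gates. In the B gate, Ciita at 64.2 CPM rests on 7 UMIs and H2-DMb2 at 73.4 CPM on 8.

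Barcodes with 2 hashtags more than 2.5 SD over background were removed as doublets (13085, 11.2%). The rest were assigned by a Gaussian mixture (posterior at least 0.9, at least 20 hashtag counts), and 20482 stayed unassigned. Doublets within a mouse cannot be seen. Cells with under 200 genes, or over 10% of counts from mitochondrial genes, were left out. A gate needed at least 3 of its markers, a margin of 0.1 to the next class, and under 0.5 times its score for another lineage. These limits were chosen after seeing the data, and the gates may depart from the study's own cell types. The genes, lists and markers were chosen with earlier results of these data known, so the report gives no p over the list alone in the comparisons of groups.

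Counts were summed per mouse and gate (at least 20 cells), with the technical lanes of a pool joined, and fitted with edgeR 4.0.16 (R 4.3.3): TMM, filterByExpr, quasi-likelihood test, 1 mean for each of the 4 groups, Benjamini-Hochberg adjustment over all genes tested, called below 0.05. Fitted folds and log2 differences are on the TMM scale, while the levels are plain CPM. A fitted fold can therefore differ from the ratio of the printed levels. P-values measure the spread between mice of shared pools. A fold with anti-CD40 in the B gate rests on 1 to 3 mice per group. Gates within a mouse were compared by exact sign-flip tests on log2(CPM + 1). On simulated counts for CD40 in B2m-null tumours, 75% and 94% of genes changed by 1 and 2 (log2) were recovered in the macrophage gate (11686 genes), and 65% and 92% in the monocyte gate (8662 genes). False calls were 11 in each gate, 6.11% of calls in macrophages and 6.55% in monocytes. The simulated mice shared no pool effect, unlike mice of a pool here. Alternatives were DESeq2 1.42.0, RLE scaling, no filter, the pool as the unit (cells without a hashtag included), at least 50 cells, stricter cell filters, clusters (scanpy 1.11.5, 26 clusters, 5 unnamed) in place of gates, a replicate block, a pseudocount of 10, and leaving out each mouse and pool. The named genes were all 10 members, the 8 pathway genes with the largest absolute change among those called in macrophages with anti-CD40, and the 10 or 5 most similar profiles. Other pathway genes called were named after their values were seen, and 1 gene of the list is not reported here.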

Additional observations from a re-analysis of the deposited data

Results flagged for a closer look

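Within groups of 4 or more mice, 6 of 100 groups checked (6.0%) had a mouse far from the others, where chance gives about 1 in 20. H2-Oa in macrophages was at 2.33 CPM in mouse 2 of B2m-null anti-CD40 pool 1, against 0.83 to 0.92 CPM in the other 3, from 17 UMIs. In the melanoma gate of control isotype mice, H2-DMb2 was at 6.59 CPM in mouse 3 of pool 1, against 0 to 1.89 CPM, from 6 UMIs, and H2-Oa was at 0 CPM in mouse 1 of pool 1, against 2.20 to 2.83 CPM. There 3 UMIs would be 4.97 CPM and the other mice had 1 to 4 UMIs, so that the 0 cannot be told apart from them. In monocytes, Ciita was at 55.9 CPM in mouse 2 of B2m-null anti-CD40 pool 1 (the others 88.1 to 91.2 CPM) and at 84.6 CPM in mouse 2 of control isotype pool 1 (the others 58.4 to 63.6 CPM). H2-DMa in monocytes was at 613 CPM in mouse 1 of B2m-null isotype pool 2 (the others 409 to 452 CPM).

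The CD40 effect differed between B2m-null and control tumours for H2-DMb1, by 1.03 on the log2 scale in macrophages (adjusted p = 0.0375, edgeR). This was 1 of 10 members, where 16.3% of all genes were called, and the call was lost in most removals of a mouse, with no filter on low counts, with stricter cell filters and with clusters. In cDC1 the difference for H2-DMb1 was 1.53, but it rests on 1 B2m-null anti-CD40 mouse of 24 cells, so it does not show that the effects differ there.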

How the results depend on the processing

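Of the members called for anti-CD40 in macrophages, monocytes, B2m-null dendritic cells and B2m-null B cells, or for genotype in macrophages, none reversed direction under an alternative that gave a value. Members without a call did change sign, as with anti-CD40 in B2m-null dendritic cells, where Ciita ranged from -0.68 to 0.28 and H2-DMa from -0.04 to 0.83 (log2). The members called for anti-CD40 in B2m-null macrophages and monocytes stayed within 1.5 times of 7 and 6 in number. With no filter on low counts, the members called were 1 for anti-CD40 in control macrophages (2 in the report), 2 for genotype in macrophages (6), 0 for the difference of CD40 effects there (1), 1 for genotype and 2 for the difference of CD40 effects in monocytes (both 0), and 4 for anti-CD40 in B2m-null B cells (1). With DESeq2 they were 4 for anti-CD40 in control macrophages, 2 for the difference of CD40 effects in macrophages, 1 for each of anti-CD40 in control tumours and the difference of CD40 effects in dendritic cells (0), and 0 for B cells. With the pool as the unit they were 4 for control macrophages, 0 for control monocytes (3), 0 for B2m-null dendritic cells (5), 0 for B cells and 0 for the macrophage difference. Control anti-CD40 is a single pool, assumed to vary as the others do, so the pool counts that use it say nothing on stability. With stricter cell filters they were 1 for genotype and 0 for the difference in macrophages. With clusters they were 1 for control macrophages, 1 for genotype in macrophages, 0 for the macrophage difference, 1 for control dendritic cells and 0 for B cells. The cDC2 gate alone gave 1 for B2m-null dendritic cells. The cDC1 gate alone gave 2, and 1 for the difference of CD40 effects, but with 1 B2m-null anti-CD40 mouse these are not read as calls. The cause was not tested. The melanoma gate had 0 members above T cells with at least 10 cells and 0 without C1q UMIs, the second because 3 mice cannot pass.

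Leaving out a mouse or a pool gave ranges of calls of 0 to 5 for anti-CD40 in control macrophages, 5 to 7 in B2m-null macrophages, 0 to 7 for genotype in macrophages and 0 to 4 for the macrophage difference. The ranges were 0 to 4 for control and 4 to 7 for B2m-null monocytes, 0 to 3 for the monocyte difference, 0 to 1 for control and 0 to 7 for B2m-null dendritic cells, 0 to 1 for genotype and 0 to 6 for the difference in dendritic cells. In B cells they were 0 to 5 for B2m-null tumours and 0 to 1 for the difference, which has 1 control isotype mouse, and 0 to 6 members were higher in the melanoma gate. Whether pools of the same number shared a batch is not settled here. The deviations of same-numbered pools had correlations of 0.022, 0.094 and 0.170 between groups in macrophages, all positive, which cannot decide it. Lane medians were lower in pool 1 than in pool 2 of control isotype (2756 against 3348 UMIs), B2m-null isotype (2182 against 4225) and B2m-null anti-CD40 (2821 against 3610). The replicate block gave 6 calls in B2m-null B cells and 7 in B2m-null dendritic cells. Members at a few CPM, such as H2-Oa and H2-Ob in macrophages, and the small B gate are limited by depth.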
